A study of Mus musculus with 8 samples.

Results

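The genes described here encode voltage-gated and potassium ion channels. They were chosen by symbol alone: Kcn genes, Scn genes ending in a or b, Cacna, Cacnb and Cacng genes, and the Hcn genes. Of the 19938 genes tested, 130 matched. All 130 entered the tests, since no filter on low values was used. In wild-type sham hearts 37 of them had a mean log2 level of 6 or more, and these are described first; the other 93 lay below it. The lowest members inside that limit were Kcne1 (6.06), Cacna1s (6.07) and Kcnt2 (6.09), and the highest outside it were Cacng4 (5.93), Kcnk15 (5.89) and Kcna7 (5.88).

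RNA came from hearts of wild-type (WT) mice and of mice without MAFbx (KO), the muscle ubiquitin ligase encoded by Fbxo32, and was read on the Affymetrix Mouse Gene ST array. In each genotype, 1 group had a sham operation and 1 a permanent tie around the left coronary artery, giving a myocardial infarction (MI). RNA was taken 1 day after the tie; no time is stated for the sham operation. The 4 groups had 2 arrays each: WT and KO sham, WT and KO MI. The labels leave out strain, age, sex, the region of the heart and how the KO allele was made. They also leave open which arrays are separate mice, so the p-values cover the spread among these samples only, and that spread may be technical.

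Fbxo32 read 8.76 and 8.79 in WT sham, 4.68 and 5.17 in KO sham, 8.35 and 8.21 in WT MI, and 5.14 and 5.46 in KO MI, so the KO arrays lay below every WT array. The 9 cardiomyocyte markers read between 11.75 and 13.94 on all 8 arrays. Over all genes and arrays the 10th, 50th and 90th percentiles of level were 3.03, 5.78 and 9.02. On the second principal component, the arrays of KO sham (-21.2 and 15.3) and of WT MI (0.63 and -20.2) lay far apart within their groups. A log2 level of 1 probe cannot be set against that of another, so levels are compared here within a gene only.

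A heartbeat starts with a voltage change that channels shape in sequence. Sodium channels give the upstroke, calcium channels carry the current that triggers contraction, and potassium channels end the action potential. In the mouse ventricle the transient outward current through Kcnd channels, with their Kcnip2 subunit, gives a fast repolarization. Delayed rectifiers (Kcnq1 with Kcne1, Kcnh2, and the Kcna group) complete it, inward rectifiers (Kcnj) and 2-pore channels (Kcnk) hold the resting potential, and Hcn channels carry the pacemaker current. Several family members belong mainly to other cells, such as Kcnmb1 in smooth muscle and Kcnn4 and Kcna3 in leukocytes.

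Most channel genes with a level of 6 or more in WT sham were lower 1 day after infarction in both genotypes. In WT, 31 of the 37 with a level of 6 or more fell, 1 rose (Kcna3), and 5 did not pass the test. Their median log2 difference was -1.03, and 19 fell at least 2-fold. In KO, 23 of the 37 fell and 0 rose, with a median of -0.67 and 11 at least 2-fold lower. Of all 9338 genes of 6 or more, 819 (8.77%) fell at least 2-fold in WT and 308 (3.3%) in KO. Differences were tested with limma, with Benjamini-Hochberg adjustment over all 19938 genes at 0.05. Each adjusted p below comes from that fit.

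The background of these counts was large. Of all genes, 28.1% were called in WT (12.3% higher and 15.8% lower) and 20.8% in KO (10.5% higher and 10.3% lower). Among the 9338 genes of 6 or more, 29.8% were lower and 14.3% higher in WT, with a median difference of -0.16. In KO 18.7% were lower and 14.9% higher, with a median of -0.05. The limit of 6 uses the WT sham arrays, which also enter the WT comparison but not the KO comparison. Over all 130 channel genes the count was 8 higher and 34 lower in WT, and 5 higher and 23 lower in KO. The median over all 130 was 0.04 in WT, against 0.04 over all genes, and -0.07 in KO, against 0.01. The lower calls were 26.2% of the 130 in WT and 17.7% in KO, and the higher calls 6.15% and 3.85%. Without WT sham replicate 2 the count of lower channel genes in WT was 22, and without KO MI replicate 1 it was 15 in KO. The 8 higher in WT became 4 without either WT sham array, 5 without WT MI replicate 2 and 15 without either KO sham array. The 5 higher in KO became 2 without KO MI replicate 1 and 3 without KO MI replicate 2. Median centring of the arrays gave 1580 higher and 3127 lower among all genes in WT, against 2457 and 3152, and 1900 and 1152 in KO, against 2098 and 2044. It gave 4 higher and 33 lower channel genes in WT and 5 and 17 in KO. Of the 93 members below 6, 7 rose and 3 fell in WT, and 5 rose and 0 fell in KO. Of all genes below 6, 10.6% rose and 3.52% fell in WT, and 6.63% rose and 2.84% fell in KO.

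In these whole-heart samples, fewer cells of a type and less RNA per cell cannot be told apart. Of the 9 cardiomyocyte markers, 3 were lower in WT, with a median of -0.15, and 1 was lower in KO, with a median of -0.06. The lowest of them was Pln in WT (-0.58) and Ryr2 in KO (-0.45). Of the 37 channel genes, 25 lay below Pln's difference in WT, against 22.3% of all genes of 6 or more. In KO 28 of the 37 lay below Ryr2's, against 19.6%. The markers read 11.75 to 13.94, above the 90th percentile of all values (9.02), and were not matched in level to the channel genes. Whether differences at that level compare in size with those of channel genes was not tested. The part that a loss of heart muscle RNA had in the lower channel values was not tested further.

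**Figure D1:**
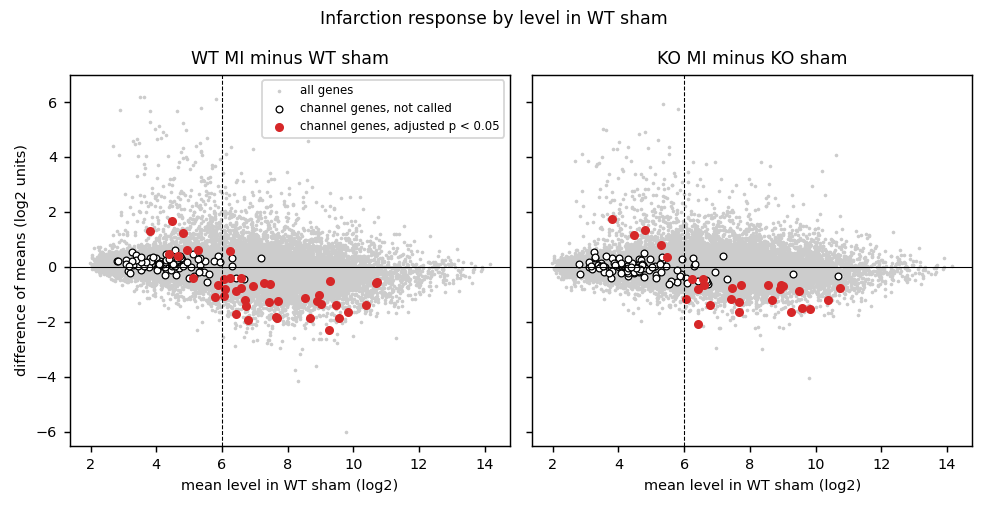
Difference of group means, MI minus sham (log2 units), against the mean log2 level in WT sham for all 19938 genes (grey) and the 130 channel genes (red where the adjusted p was under 0.05, open where it was not), in WT and in KO. The dashed line marks a level of 6; to its right 31 of 37 channel genes were called lower in WT and 23 of 37 in KO.

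**Figure D2:**
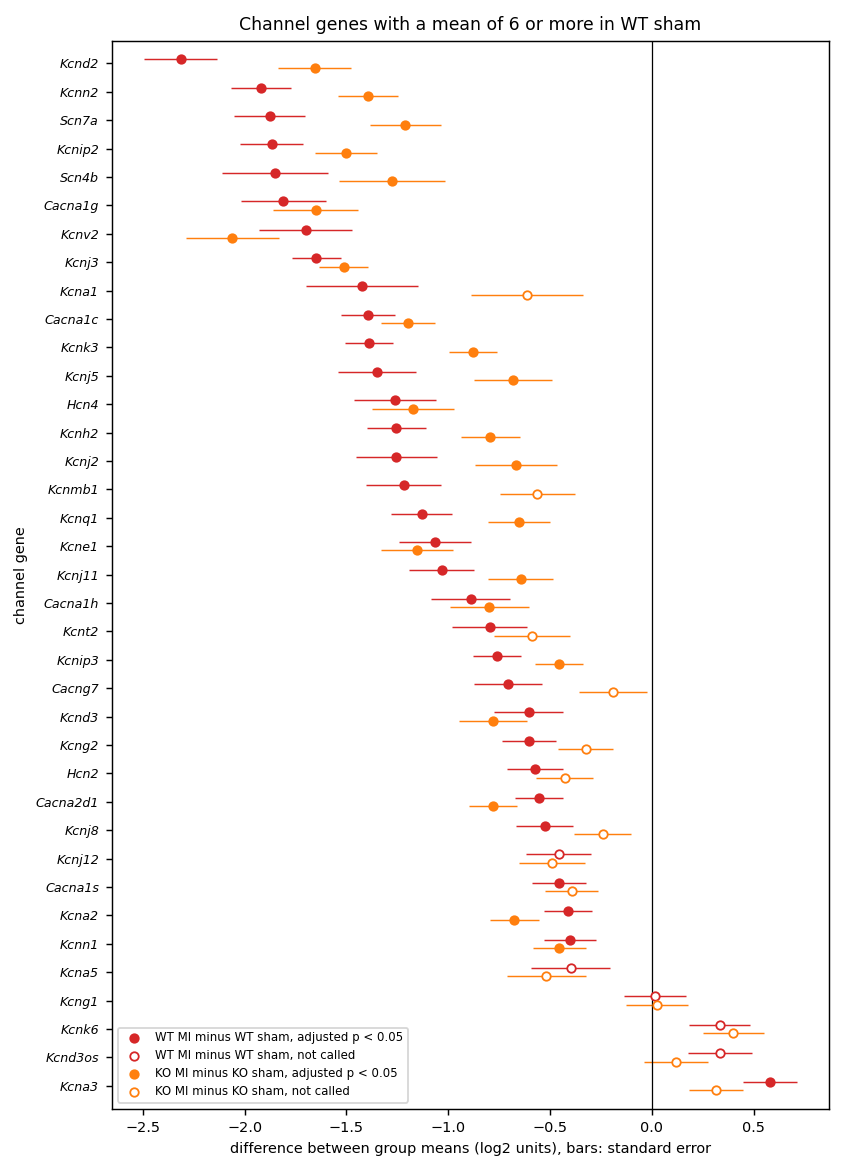
Difference of group means, MI minus sham (log2 units), with its standard error for the 37 channel genes with a mean level of 6 or more in WT sham, in WT (red) and KO (orange), ordered by the WT value. Filled points had an adjusted p under 0.05; Kcnd2 had the lowest value in WT and Kcnv2 the lowest in KO.

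Of the 42 channel genes called in WT and the 28 called in KO, 23 were lower and 4 higher in both, and 0 were called in opposite directions. Each comparison has its own control arrays, but the fit gives each gene a spread estimate shared by all 4 groups. How many of all genes were called in both was not counted, so these counts are not read as particular to channel genes. A further 11 were lower and 4 higher in WT alone, and 1, Kcnc4, was higher in KO alone. A call in 1 genotype does not show that the genotypes differ, and the test of that difference is given further on. All called genes had arrays that did not overlap between MI and sham, as 35% of all genes did upward and 31.6% downward in WT, and 28.1% and 27.5% in KO.

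The transient outward channel genes were among the most reduced. Kcnd2, the main pore subunit of the fast transient outward current, read 9.31 and 9.20 in WT sham, 8.33 and 8.92 in KO sham, 6.99 and 6.89 in WT MI, and 6.94 and 7.002 in KO MI. The lowest sham array lay 1.33 above the highest infarct array, and the 4 infarct arrays were within 0.11 of each other. The gene fell 4.97-fold in WT (log2 difference -2.31 with SE 0.18, adjusted p = 2.09e-05) and 3.15-fold in KO (log2 difference -1.66 with SE 0.18, adjusted p = 0.000244). Kcnip2, the cytosolic subunit that sets the surface density and gating of these channels, read 9.61 and 9.55 in WT sham, 8.82 and 9.13 in KO sham, 7.59 and 7.84 in WT MI, and 7.37 and 7.58 in KO MI. Its infarct level was 3.65-fold lower in WT (log2 difference -1.87 with SE 0.15, adjusted p = 2.92e-05) and 2.83-fold lower in KO (log2 difference -1.50 with SE 0.15, adjusted p = 0.000171), with both sham groups above all infarct arrays. The KO sham arrays of both genes lay below the WT sham arrays.

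The 250 bases before the RefSeq start of both genes are shown because their transcripts fell together. These RefSeq windows (GRCm38.p6) lie at chr6:21215096-21215345 on the plus strand for Kcnd2 and at chr19:45816064-45816313 on the minus strand for Kcnip2, and are written 5′ to 3′. Capitals mark the GC box GGGCGG, a motif of promoters without a TATA box:
Kcnd2: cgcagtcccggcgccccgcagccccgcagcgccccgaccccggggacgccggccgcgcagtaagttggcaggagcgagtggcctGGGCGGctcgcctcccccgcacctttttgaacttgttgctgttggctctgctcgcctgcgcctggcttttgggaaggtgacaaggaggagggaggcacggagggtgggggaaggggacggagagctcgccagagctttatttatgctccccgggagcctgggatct
Kcnip2: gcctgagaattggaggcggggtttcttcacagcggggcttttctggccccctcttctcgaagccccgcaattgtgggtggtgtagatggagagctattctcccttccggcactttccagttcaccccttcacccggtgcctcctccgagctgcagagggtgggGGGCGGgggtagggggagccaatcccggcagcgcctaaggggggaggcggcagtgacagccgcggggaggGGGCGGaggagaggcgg
The Kcnd2 window held 1 GC box and the Kcnip2 window 2, and neither held any other motif searched.

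The motifs searched on both strands were the TATA box TATAAA, the GC box GGGCGG, the AP-1-like pattern TGANTCA and the cyclic AMP element TGACGTCA. The GATA motif AGATAA, the M-CAT motif CATTCCA and the Iroquois motif ACANNTGT were searched too. N stands for any base. RefSeq windows were found for 99 of the 130 genes, 134 windows in all. The GC box was in 43.3% of these windows, against 32.7% of the 32841 windows of all genes. It was in 55% of the 20 windows of 15 channel genes that were lower in both genotypes. TATAAA was in 3.73% of the channel windows, 12.4% of all windows and 0 of the 20. The median GC content was 58.2% in the channel windows, 63.2% in those 20 and 52.4% over all windows. A match describes the letters and is not a measured binding site.

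Kcnd3, the other pore subunit of this current in heart, read 7.49 and 7.44 in WT sham, 7.68 and 7.83 in KO sham, 6.69 and 7.03 in WT MI, and 6.77 and 7.18 in KO MI. Its arrays did not overlap between sham and infarct, and it fell 1.52-fold in WT (log2 difference -0.61 with SE 0.17, adjusted p = 0.0233) and 1.72-fold in KO (log2 difference -0.78 with SE 0.17, adjusted p = 0.00942). Its WT call was lost without WT sham replicate 1 (0.115), WT sham replicate 2 (0.0905) or WT MI replicate 1 (0.133; adjusted p, 0.0153 to 0.133 over its alternatives), and its KO call without KO MI replicate 1 (at an adjusted p of 0.0869; 0.00473 to 0.0869 over its alternatives). Kcnd3os, a noncoding RNA named for this gene, differed by 0.33 (adjusted p = 0.145) in WT and 0.12 (adjusted p = 0.68) in KO. Kcnip3, a calcium-binding relative of Kcnip2, read 6.56 and 6.60 in WT sham, 6.39 and 6.45 in KO sham, 5.89 and 5.75 in WT MI, and 5.99 and 5.94 in KO MI. After infarction it was 1.69-fold lower in WT (log2 difference -0.76 with SE 0.12, adjusted p = 0.00111) and 1.37-fold lower in KO (log2 difference -0.46 with SE 0.12, adjusted p = 0.0228). Its KO call was lost without KO sham replicate 2 (0.061), KO MI replicate 1 (0.0888), KO MI replicate 2 (0.13), with only both compared groups in the fit (0.0629) or with median centring (0.153; adjusted p, 0.0139 to 0.153 over its alternatives).

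**Figure D3:**
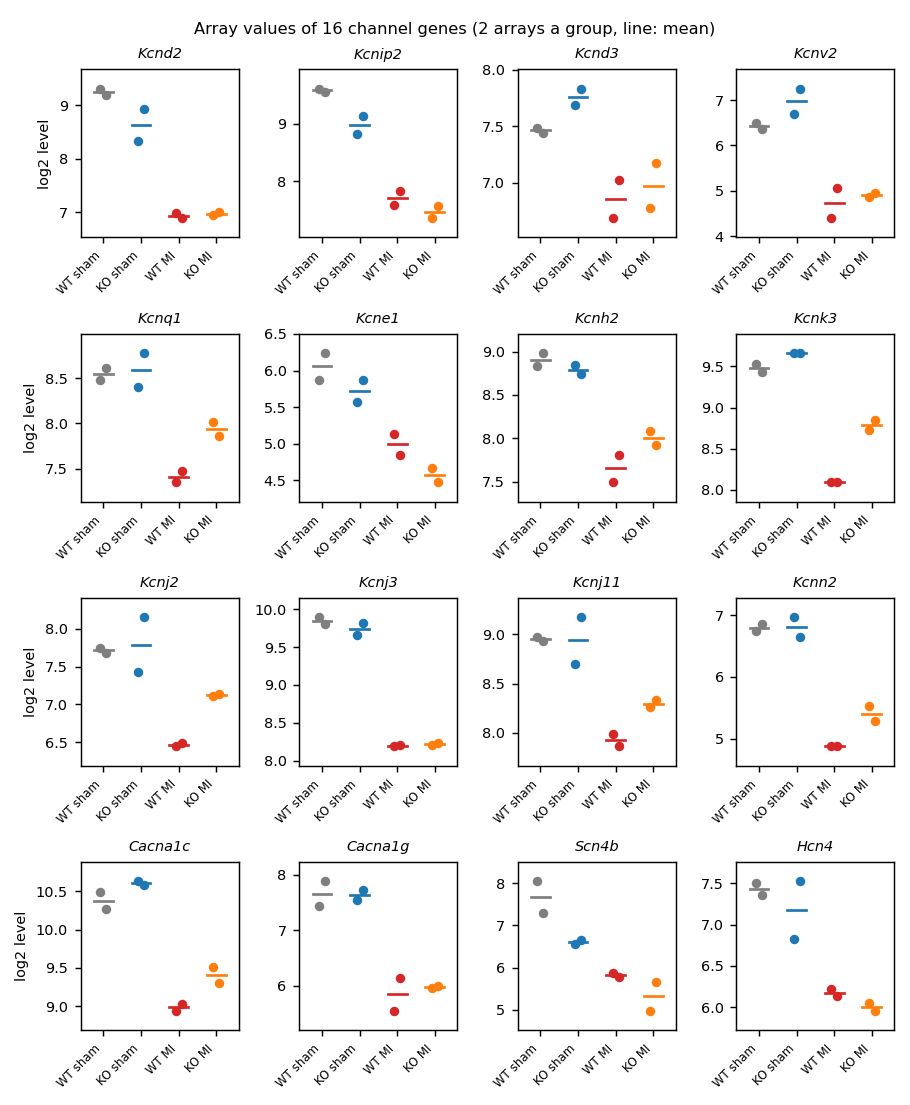
Log2 level on each of the 2 arrays in WT sham (grey), KO sham (blue), WT MI (red) and KO MI (orange) for 16 channel genes, each panel with its own scale and a line at the group mean. In all 16 panels the infarct arrays lie below the sham arrays of the same genotype.

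The genes of the slow delayed rectifier fell in both genotypes. Kcnq1, its pore subunit, read 8.47 and 8.62 in WT sham, 8.40 and 8.78 in KO sham, 7.35 and 7.48 in WT MI, and 8.02 and 7.86 in KO MI. The KO MI arrays lay between the WT MI arrays and the sham arrays, with no overlap. It fell 2.19-fold in WT (log2 difference -1.13 with SE 0.15, adjusted p = 0.000475) and 1.57-fold in KO (log2 difference -0.65 with SE 0.15, adjusted p = 0.0136), and the KO call was lost without KO sham replicate 2 (0.062), KO MI replicate 2 (0.106) or with median centring (0.0679; adjusted p, 0.00607 to 0.106 over its alternatives). Kcne1, the single-pass subunit that slows Kcnq1, read 5.87 and 6.24 in WT sham, 5.58 and 5.88 in KO sham, 5.13 and 4.84 in WT MI, and 4.67 and 4.47 in KO MI. The gene was 2.09-fold lower in WT (log2 difference -1.07 with SE 0.18, adjusted p = 0.00155) and 2.22-fold lower in KO (log2 difference -1.15 with SE 0.18, adjusted p = 0.00159), and its infarct arrays were all below its sham arrays.

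Kcnh2, the pore subunit of the rapid delayed rectifier, read 8.83 and 8.98 in WT sham, 8.84 and 8.74 in KO sham, 7.49 and 7.81 in WT MI, and 8.08 and 7.92 in KO MI. Sham arrays of both genotypes lay within 0.24 of each other and all infarct arrays at least 0.66 below them. It was 2.39-fold lower in WT (log2 difference -1.25 with SE 0.15, adjusted p = 0.000211) and 1.73-fold lower in KO (log2 difference -0.79 with SE 0.15, adjusted p = 0.00415). Kcnv2, a silent subunit that forms channels only with other Kv subunits, read 6.49 and 6.36 in WT sham, 6.69 and 7.25 in KO sham, 4.40 and 5.06 in WT MI, and 4.87 and 4.95 in KO MI. The KO sham arrays were the highest and the highest infarct array read 5.06. Its fall was 3.25-fold in WT (log2 difference -1.70 with SE 0.23, adjusted p = 0.000485) and 4.17-fold in KO (log2 difference -2.06 with SE 0.23, adjusted p = 0.000285), the largest fall of a channel gene in KO.

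The Kcna genes, which encode rapidly activating Kv channels, gave mixed calls. Kcna1 read 7.18 and 6.28 in WT sham, 5.93 and 5.42 in KO sham, 5.15 and 5.46 in WT MI, and 4.99 and 5.14 in KO MI; the WT sham arrays were far apart and the highest. It fell 2.68-fold in WT (log2 difference -1.42 with SE 0.27, adjusted p = 0.00373), and differed by -0.61 (adjusted p = 0.159) in KO. Kcna2 read 6.56 and 6.63 in WT sham, 6.44 and 6.36 in KO sham, 6.16 and 6.21 in WT MI, and 5.66 and 5.79 in KO MI. Its fall was 1.33-fold in WT (log2 difference -0.41 with SE 0.12, adjusted p = 0.0278) and 1.6-fold in KO (log2 difference -0.68 with SE 0.12, adjusted p = 0.00343), and the WT call was lost without WT sham replicate 1 (0.107), WT sham replicate 2 (0.17), WT MI replicate 1 (0.0917) or WT MI replicate 2 (0.0758; adjusted p, 0.0171 to 0.17 over its alternatives). A second probe of Kcna2 differed by -0.58 in WT and -0.22 in KO. Kcna5, which carries an ultrarapid current in atrial and rodent ventricular muscle, read 6.40 and 6.45 in WT sham, 6.46 and 5.92 in KO sham, 6.09 and 5.96 in WT MI, and 5.88 and 5.46 in KO MI. It differed by -0.40 (adjusted p = 0.161) in WT and -0.52 (adjusted p = 0.0923) in KO. With only WT sham and WT MI in the fit the WT difference of Kcna5 passed (adjusted p = 0.0419), and without KO sham replicate 2 the KO difference did (0.0213). The ranges over its alternatives were 0.0419 to 0.422 and 0.0213 to 0.482.

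Kcna7, just below the level limit, was 1.58-fold lower in WT (log2 difference -0.66 with SE 0.18, adjusted p = 0.0222) and differed by -0.35 (adjusted p = 0.228) in KO, with the WT call lost without WT sham replicate 1 (0.16), WT MI replicate 1 (0.062) or WT MI replicate 2 (0.105; adjusted p, 0.00682 to 0.16 over its alternatives). Kcng2, a silent subunit, read 10.67 and 10.70 in WT sham, 10.38 and 10.61 in KO sham, 9.97 and 10.19 in WT MI, and 10.19 and 10.15 in KO MI. It fell 1.52-fold in WT (log2 difference -0.60 with SE 0.13, adjusted p = 0.00785), a call lost without WT sham replicate 2 (0.0579) or WT MI replicate 1 (0.0506; adjusted p, 0.00146 to 0.0579 over its alternatives); the KO difference was -0.33 (adjusted p = 0.123). Kcng1, a related silent subunit, differed by 0.02 (adjusted p = 0.95) in WT and 0.02 (adjusted p = 0.943) in KO. Kcnab1, an intracellular subunit of Kcna channels with a level below 6, was 1.33-fold lower in WT (log2 difference -0.41 with SE 0.13, adjusted p = 0.0358) and -0.29 different in KO (adjusted p = 0.141). With the replicate number as a block, its WT difference did not pass (adjusted p = 0.0521). The WT call was lost without WT sham replicate 1 (0.15), WT sham replicate 2 (0.162), WT MI replicate 1 (0.142), WT MI replicate 2 (0.0589), KO MI replicate 1 (0.0547), KO MI replicate 2 (0.0547), with an intensity trend (0.0642) or with median centring (0.0515; adjusted p, 0.0177 to 0.162 over its alternatives).

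Of the 15 inward rectifier genes, 5 fell in WT and 4 in KO, and 0 rose. Kcnj3, a pore subunit of the acetylcholine-activated channel, read 9.89 and 9.80 in WT sham, 9.65 and 9.82 in KO sham, 8.19 and 8.20 in WT MI, and 8.20 and 8.24 in KO MI. The 4 infarct arrays lay within 0.05 of each other and at least 1.42 below every sham array. It was 3.14-fold lower in WT (log2 difference -1.65 with SE 0.12, adjusted p = 1.51e-05) and 2.86-fold lower in KO (log2 difference -1.51 with SE 0.12, adjusted p = 3.88e-05). Kcnj5, its partner in the same channel, read 8.91 and 9.11 in WT sham, 8.63 and 8.99 in KO sham, 7.91 and 7.41 in WT MI, and 8.22 and 8.03 in KO MI. It fell 2.55-fold in WT (log2 difference -1.35 with SE 0.19, adjusted p = 0.00063) and 1.6-fold in KO (log2 difference -0.68 with SE 0.19, adjusted p = 0.0309), and the KO call was lost without KO sham replicate 2 (0.153), KO MI replicate 1 (0.082), KO MI replicate 2 (0.182) or with median centring (0.102; adjusted p, 0.00882 to 0.182 over its alternatives).

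Both genes are known for atrial expression, and atrial marker levels varied among the sham arrays. The atrial marker Myl7 read 6.09 and 8.80 in WT sham, 7.86 and 4.56 in KO sham, 4.64 and 4.91 in WT MI, and 4.62 and 4.67 in KO MI. The 6 atrial markers had mean levels of 6.23 and 7.49 in WT sham, 6.35 and 5.20 in KO sham, and 5.78 to 5.93 after infarction. They did not move together: 2 were called lower and 1 higher in WT, with log2 differences from -2.67 to 1.64. In KO 0 were called lower and 1 higher, with differences from -1.60 to 4.09. Their part in the lower Kcnj3 and Kcnj5 was not tested.

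Kcnj2, the main pore subunit of the current that holds the resting potential in ventricle, read 7.75 and 7.69 in WT sham, 7.43 and 8.16 in KO sham, 6.44 and 6.49 in WT MI, and 7.11 and 7.14 in KO MI. Its KO sham arrays were 0.72 apart, and the WT MI arrays were the lowest. It was 2.39-fold lower in WT (log2 difference -1.25 with SE 0.20, adjusted p = 0.00131) and 1.59-fold lower in KO (log2 difference -0.67 with SE 0.20, adjusted p = 0.0424). The KO call was lost without WT sham replicate 1 (0.0637), WT sham replicate 2 (0.0637), KO sham replicate 2 (0.143), WT MI replicate 1 (0.0598), WT MI replicate 2 (0.0598), KO MI replicate 1 (0.166), KO MI replicate 2 (0.153), with only both compared groups in the fit (0.0886) or with median centring (0.125; adjusted p, 0.0018 to 0.166 over its alternatives). Kcnj12, a second subunit of that current, differed by -0.46 (adjusted p = 0.0595) in WT and -0.49 (adjusted p = 0.0577) in KO.

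Kcnj11, the pore of the ATP-sensitive channel of ventricular muscle, which opens when energy runs low, read 8.98 and 8.94 in WT sham, 8.70 and 9.18 in KO sham, 7.99 and 7.86 in WT MI, and 8.26 and 8.33 in KO MI. Its infarct level was 2.05-fold lower in WT (log2 difference -1.03 with SE 0.16, adjusted p = 0.00106) and 1.56-fold lower in KO (log2 difference -0.64 with SE 0.16, adjusted p = 0.0184), with no overlap between sham and infarct arrays. The KO call was lost without KO sham replicate 2 (0.0703), KO MI replicate 1 (0.106), KO MI replicate 2 (0.0786) or with median centring (0.0874; adjusted p, 0.00396 to 0.106 over its alternatives). Kcnj8, the related pore known from vascular smooth muscle and pericytes, read 9.41 and 9.20 in WT sham, 8.96 and 9.16 in KO sham, 8.75 and 8.81 in WT MI, and 8.93 and 8.70 in KO MI. It fell 1.44-fold in WT (log2 difference -0.53 with SE 0.14, adjusted p = 0.0192), a call lost without WT sham replicate 1 (0.156), WT MI replicate 1 (0.0753) or WT MI replicate 2 (0.0614; adjusted p, 0.0079 to 0.156 over its alternatives); the KO difference was -0.24 (adjusted p = 0.286).

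Kcnk3, the acid-sensitive 2-pore channel that gives a background potassium current, read 9.54 and 9.43 in WT sham, 9.66 and 9.66 in KO sham, 8.09 and 8.09 in WT MI, and 8.72 and 8.84 in KO MI. The KO MI arrays lay 0.63 or more above the WT MI arrays and 0.81 or more below the KO sham arrays. Its fall was 2.62-fold in WT (log2 difference -1.39 with SE 0.12, adjusted p = 3.54e-05) and 1.84-fold in KO (log2 difference -0.88 with SE 0.12, adjusted p = 0.000813). Of the 14 Kcnk genes it was the single one to fall in either genotype. Kcnk6, the other Kcnk gene of 6 or more, differed by 0.33 (adjusted p = 0.136) in WT and 0.40 (adjusted p = 0.0957) in KO.

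Kcnn2, a small-conductance calcium-activated channel of atrial and pacemaker muscle, read 6.74 and 6.85 in WT sham, 6.97 and 6.64 in KO sham, 4.88 and 4.88 in WT MI, and 5.53 and 5.29 in KO MI. All infarct arrays lay at least 1.11 below all sham arrays. It was 3.78-fold lower in WT (log2 difference -1.92 with SE 0.15, adjusted p = 2.05e-05) and 2.63-fold lower in KO (log2 difference -1.40 with SE 0.15, adjusted p = 0.000214). Kcnn1, a related pore, was 1.32-fold lower in WT (log2 difference -0.40 with SE 0.13, adjusted p = 0.042) and 1.37-fold lower in KO (log2 difference -0.45 with SE 0.13, adjusted p = 0.0323). With the replicate number as a block, its WT difference did not pass (adjusted p = 0.0569). The WT call of Kcnn1 was lost without WT sham replicate 1 (0.104), WT sham replicate 2 (0.247), WT MI replicate 1 (0.0521), WT MI replicate 2 (0.198), KO MI replicate 1 (0.0624), KO MI replicate 2 (0.0624), with an intensity trend (0.0604) or with only both compared groups in the fit (0.052; adjusted p, 0.0273 to 0.247 over its alternatives). Its KO call was lost without WT sham replicate 1 (0.0585), WT sham replicate 2 (0.0585), KO sham replicate 1 (0.0988), KO MI replicate 1 (0.0866), KO MI replicate 2 (0.188), with only both compared groups in the fit (0.071) or with median centring (0.148; adjusted p, 0.0205 to 0.188 over its alternatives). Kcnt2, a sodium-activated channel, was 1.74-fold lower in WT (log2 difference -0.80 with SE 0.19, adjusted p = 0.0101), a call lost without WT sham replicate 2 (0.079) or WT MI replicate 2 (0.0696; adjusted p, 0.00183 to 0.079 over its alternatives). Its KO difference of -0.59 did not pass (adjusted p = 0.05004). It passed under 5 alternatives, among them without KO sham replicate 2 (0.00586), and its adjusted p ranged from 0.00586 to 0.22.

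Kcnmb1, the smooth muscle subunit of the large-conductance calcium-activated channel, read 6.44 and 6.96 in WT sham, 5.77 and 6.14 in KO sham, 5.49 and 5.48 in WT MI, and 5.42 and 5.37 in KO MI. The WT sham arrays were the highest and the KO sham arrays next. It fell 2.33-fold in WT (log2 difference -1.22 with SE 0.18, adjusted p = 0.000921) and differed by -0.56 (adjusted p = 0.0577) in KO. The KO difference passed with the lowest 33.3% of genes left out (adjusted p = 0.0419), without either WT sham array (0.0377) and without KO sham replicate 1 (0.0388), with adjusted p from 0.0377 to 0.25 over its alternatives. Smooth muscle markers moved beside it and Kcnj8: 7 of 9 fell in WT and 3 in KO. Their mean level was 8.21 and 8.68 in WT sham, 7.79 and 7.87 in KO sham, 7.54 and 7.67 in WT MI, and 7.70 and 7.63 in KO MI. Their part in the lower Kcnmb1 and Kcnj8 was not tested.

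All 4 calcium channel pore genes of 6 or more fell in WT, and 3 of them in KO. Cacna1c, the pore of the L-type channel that triggers contraction, read 10.49 and 10.27 in WT sham, 10.63 and 10.58 in KO sham, 8.94 and 9.03 in WT MI, and 9.51 and 9.31 in KO MI. The lowest sham array read 10.27 and the highest infarct array 9.51. It was 2.63-fold lower in WT (log2 difference -1.39 with SE 0.13, adjusted p = 6.92e-05) and 2.3-fold lower in KO (log2 difference -1.20 with SE 0.13, adjusted p = 0.00028). Cacna1g, a T-type pore active at low voltage and known from pacemaker and conduction cells, read 7.44 and 7.88 in WT sham, 7.54 and 7.73 in KO sham, 5.55 and 6.15 in WT MI, and 5.96 and 6.003 in KO MI. It fell 3.51-fold in WT (log2 difference -1.81 with SE 0.21, adjusted p = 0.000208) and 3.14-fold in KO (log2 difference -1.65 with SE 0.21, adjusted p = 0.000587), and its infarct arrays lay at least 1.29 below its sham arrays.

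Cacna1h, a second T-type pore, read 6.28 and 6.59 in WT sham, 6.75 and 6.35 in KO sham, 5.75 and 5.34 in WT MI, and 5.64 and 5.86 in KO MI. After infarction it was 1.85-fold lower in WT (log2 difference -0.89 with SE 0.19, adjusted p = 0.00709), a call lost without WT sham replicate 2 (0.0657) or WT MI replicate 2 (0.061; adjusted p, 0.00255 to 0.0657 over its alternatives). In KO it was 1.74-fold lower (log2 difference -0.80 with SE 0.19, adjusted p = 0.0167), a call lost without KO sham replicate 1 (0.0921), KO MI replicate 1 (0.12) or KO MI replicate 2 (0.0501; adjusted p, 0.0119 to 0.12 over its alternatives). Cacna1s, the L-type pore of skeletal muscle, fell 1.37-fold in WT (log2 difference -0.46 with SE 0.13, adjusted p = 0.0281) and differed by -0.39 (adjusted p = 0.0635) in KO. Its WT call was lost without WT sham replicate 1 (0.188), WT sham replicate 2 (0.0751) or WT MI replicate 2 (0.164; adjusted p, 0.0176 to 0.188 over its alternatives).

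Of the 14 accessory calcium channel genes, 3 fell and 1 rose in WT, and 1 fell in KO. Cacna2d1, the extracellular subunit that raises the surface density of L-type channels, read 10.71 and 10.76 in WT sham, 10.72 and 10.83 in KO sham, 10.17 and 10.20 in WT MI, and 10.04 and 9.95 in KO MI. It fell 1.47-fold in WT (log2 difference -0.55 with SE 0.12, adjusted p = 0.00622) and 1.72-fold in KO (log2 difference -0.78 with SE 0.12, adjusted p = 0.00148), and the WT call was lost without WT sham replicate 2 (at an adjusted p of 0.0577; 0.000855 to 0.0577 over its alternatives). A second probe of Cacna2d1 differed by -0.41 in WT and -0.23 in KO. Cacna2d2, a relative below the level limit, read 5.29 and 6.27 in WT sham and 4.49 and 4.85 in WT MI. It was 2.16-fold lower in WT (log2 difference -1.11 with SE 0.29, adjusted p = 0.0186), a call lost without WT sham replicate 2 (0.131) or WT MI replicate 1 (0.104; adjusted p, 0.00269 to 0.131 over its alternatives); the KO difference was -0.55 (adjusted p = 0.244). Cacng7, a gamma subunit, fell 1.63-fold in WT (log2 difference -0.71 with SE 0.17, adjusted p = 0.0108), a call lost without WT sham replicate 2 (0.0946) or WT MI replicate 1 (0.0704; adjusted p, 0.00392 to 0.0946 over its alternatives), and differed by -0.19 (adjusted p = 0.504) in KO. Cacnb2, the cytosolic subunit that brings the L-type pore to the membrane, differed by 0.33 (adjusted p = 0.279) in WT and 0.33 (adjusted p = 0.334) in KO; none of the 3 Cacnb genes was called in these comparisons.

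Among sodium channel genes 1 pore gene of 8 and 1 beta gene of 3 were called, both lower. Scn4b, a beta subunit that shapes sodium channel gating in heart, read 8.04 and 7.29 in WT sham, 6.55 and 6.64 in KO sham, 5.86 and 5.77 in WT MI, and 4.98 and 5.67 in KO MI. The WT sham arrays were the highest and 0.75 apart, the KO sham arrays lay below them, and the infarct arrays were lower still. It was 3.61-fold lower in WT (log2 difference -1.85 with SE 0.26, adjusted p = 0.000625) and 2.42-fold lower in KO (log2 difference -1.27 with SE 0.26, adjusted p = 0.00725), with the KO call lost without KO MI replicate 1 (at an adjusted p of 0.0656; 0.0032 to 0.0656 over its alternatives). Scn7a, a sodium-sensing relative of the sodium channels that is not gated by voltage, read 8.75 and 8.61 in WT sham, 8.48 and 8.50 in KO sham, 6.95 and 6.66 in WT MI, and 7.52 and 7.04 in KO MI. It fell 3.67-fold in WT (log2 difference -1.88 with SE 0.17, adjusted p = 5.82e-05) and 2.32-fold in KO (log2 difference -1.21 with SE 0.17, adjusted p = 0.00118), and the KO MI arrays lay above the WT MI arrays. Scn7a is also known from Schwann cells. Of 12 measured neuron and Schwann cell markers, 2 were higher and 1 lower in each genotype, with a mean level between 4.50 and 4.62 on all arrays.

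Both pacemaker channel genes of 6 or more fell in WT. Hcn4, the main pore of the sinus node pacemaker current, read 7.51 and 7.36 in WT sham, 6.82 and 7.52 in KO sham, 6.21 and 6.13 in WT MI, and 6.05 and 5.96 in KO MI. Its infarct arrays lay at least 0.61 below its sham arrays. It was 2.4-fold lower in WT (log2 difference -1.26 with SE 0.20, adjusted p = 0.00126) and 2.25-fold lower in KO (log2 difference -1.17 with SE 0.20, adjusted p = 0.00291). Hcn2, the more widespread cardiac member, read 7.23 and 7.35 in WT sham, 7.08 and 7.07 in KO sham, 6.81 and 6.62 in WT MI, and 6.51 and 6.79 in KO MI. It fell 1.49-fold in WT (log2 difference -0.58 with SE 0.14, adjusted p = 0.0117), a call lost without WT sham replicate 2 (0.0958) or WT MI replicate 2 (0.0779; adjusted p, 0.00779 to 0.0958 over its alternatives); the KO difference was -0.43 (adjusted p = 0.0546).

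A smaller set of 9 channel genes rose in at least 1 genotype. Kcne3, an accessory subunit of Kcnq1 and other Kv channels, read 3.62 and 3.998 in WT sham, 3.73 and 3.63 in KO sham, 5.51 and 4.74 in WT MI, and 5.41 and 5.47 in KO MI. The gene was 2.49-fold higher in WT (log2 difference 1.32 with SE 0.23, adjusted p = 0.00202) and 3.38-fold higher in KO (log2 difference 1.76 with SE 0.23, adjusted p = 0.00066), with all infarct arrays above all sham arrays. Kcne4, an inhibitory subunit of the same family, read 4.42 and 4.53 in WT sham, 5.01 and 3.94 in KO sham, 6.23 and 6.07 in WT MI, and 5.56 and 5.71 in KO MI; the KO sham arrays were 1.07 apart. It rose 3.2-fold in WT (log2 difference 1.68 with SE 0.28, adjusted p = 0.00151) and 2.23-fold in KO (log2 difference 1.15 with SE 0.28, adjusted p = 0.0154). The KO call was lost without KO MI replicate 1 (0.0641) or KO MI replicate 2 (0.101; adjusted p, 0.000419 to 0.101 over its alternatives). Kcne1 fell where these relatives rose.

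Kcnn4, the intermediate-conductance calcium-activated channel of leukocytes, smooth muscle and fibroblasts, read 4.84 and 4.79 in WT sham, 5.18 and 4.80 in KO sham, 5.97 and 6.12 in WT MI, and 6.51 and 6.18 in KO MI. The gene was 2.34-fold higher in WT (log2 difference 1.23 with SE 0.16, adjusted p = 0.000477) and 2.56-fold higher in KO (log2 difference 1.36 with SE 0.16, adjusted p = 0.000464). Kcnab2, an intracellular subunit of Kcna channels, rose 1.51-fold in WT (log2 difference 0.60 with SE 0.16, adjusted p = 0.0172) and 1.73-fold in KO (log2 difference 0.79 with SE 0.16, adjusted p = 0.00584). Its WT call was lost without WT sham replicate 1 (0.164), WT MI replicate 2 (0.109) or with median centring (0.0534; adjusted p, 0.0122 to 0.164 over its alternatives), and its KO call without KO MI replicate 1 (at an adjusted p of 0.0528; 0.00427 to 0.0528 over its alternatives). Kcna3, the Kv channel of T cells and macrophages, read 6.34 and 6.17 in WT sham, 6.16 and 6.22 in KO sham, 6.91 and 6.76 in WT MI, and 6.60 and 6.41 in KO MI. The gene was 1.5-fold higher in WT (log2 difference 0.58 with SE 0.13, adjusted p = 0.00872), a call lost without WT sham replicate 2 (0.0908), WT MI replicate 1 (0.0508) or with median centring (0.0626; adjusted p, 0.00571 to 0.0908 over its alternatives); the KO difference was 0.32 (adjusted p = 0.129).

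Of the 10 windows of 7 risen genes, 6 held a GC box. The 250 bases before the first Kcne3 start (chr7:100176420-100176669, plus strand) and before the Kcnn4 start (chr7:24370013-24370262, plus strand) are shown as the windows of the most risen genes in KO. Capitals mark the AP-1-like pattern TGANTCA in Kcne3, here with A as its middle base, and the GC box, on the opposite strand, in Kcnn4:
Kcne3: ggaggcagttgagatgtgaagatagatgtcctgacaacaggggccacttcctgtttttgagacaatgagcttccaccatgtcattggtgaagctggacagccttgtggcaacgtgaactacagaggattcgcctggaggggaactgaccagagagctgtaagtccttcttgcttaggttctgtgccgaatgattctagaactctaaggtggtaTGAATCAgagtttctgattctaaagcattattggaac
Kcnn4: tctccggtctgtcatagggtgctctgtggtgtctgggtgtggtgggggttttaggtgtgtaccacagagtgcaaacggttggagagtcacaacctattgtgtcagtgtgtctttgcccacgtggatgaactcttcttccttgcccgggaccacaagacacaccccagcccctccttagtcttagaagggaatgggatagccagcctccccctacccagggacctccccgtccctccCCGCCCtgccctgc
The AP-1-like pattern, with any middle base, was in 1 of these 10 windows, in 6.75% of all windows and in 3.73% of the channel windows. The window of the other Kcne3 start (chr7:100178433-100178682, plus strand), not shown, held 2 GC boxes and no other motif searched.

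**Figure D4:**
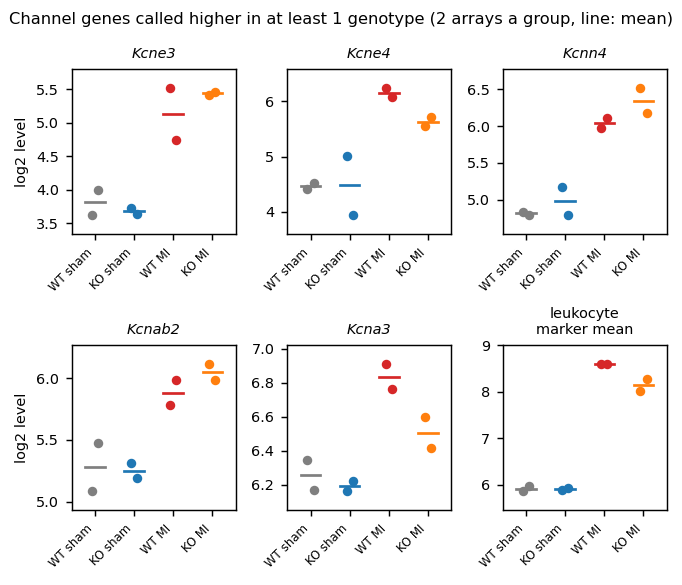
Log2 level on each of the 2 arrays a group for 5 channel genes that were called higher after infarction in at least 1 genotype, and the mean level of 12 leukocyte markers. In every panel the infarct arrays lie above the sham arrays of the same genotype; Kcna3 was not called in KO.

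Leukocyte markers rose beside these genes. Of the 12 markers, 9 were higher in WT and 9 in KO. Their mean level lay between 5.86 and 5.96 on the 4 sham arrays, at 8.59 on both WT MI arrays, and at 8.03 and 8.28 on the KO MI arrays. S100a8, a defining gene of neutrophils, read 3.82 and 3.44 in WT sham, 4.14 and 3.40 in KO sham, 9.32 and 10.34 in WT MI, and 8.70 and 8.79 in KO MI. Cd3e, which defines T cells, read 4.68 and 4.95 in WT sham, 4.99 and 4.60 in KO sham, 5.07 and 5.50 in WT MI, and 4.83 and 4.96 in KO MI. The part of leukocytes in the rise of Kcnn4, Kcna3 and Kcnab2 was not tested.

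The other rises named were from Kcnmb4os2, Cacna2d4 and Kcnc4. In WT, Kcnmb4os2, a noncoding RNA, rose 1.54-fold (log2 difference 0.62 with SE 0.15, adjusted p = 0.0111), a call lost without WT sham replicate 1 (0.0582), WT sham replicate 2 (0.0707) or WT MI replicate 1 (0.0534; adjusted p, 0.00609 to 0.0707 over its alternatives). Cacna2d4 read 4.48 and 4.33 in WT sham and 4.66 and 5.12 in WT MI (log2 difference 0.48 with SE 0.16, adjusted p = 0.0492). It lost its call under 13 of the 16 alternatives, with adjusted p from 0.0111 to 0.308. Kcnc4 rose 1.29-fold in KO (log2 difference 0.37 with SE 0.11, adjusted p = 0.0478) and also lost its call under 13 of the 16, with adjusted p from 0.0285 to 0.205. The 93 members below 6 read between 2.71 and 6.51 over all arrays, and 83 of them were not called in WT and 88 not in KO.

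No channel gene differed between genotypes in sham hearts, in infarcted hearts or in the response to infarction by limma at an adjusted p under 0.05. Of all genes, 0.0301% were called between sham groups, 0.0702% between MI groups and 0 for the difference of the responses. At an unadjusted p under 0.05, 10 of the 130 differed between sham groups (5.1% of all genes), 19 between MI groups (11.7%) and 10 in the response (8.21%). The smallest adjusted p for the response was 0.506. A p that misses the threshold does not show that the genotypes respond alike.

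The genes with the smallest p in sham hearts did not pass. Scn4b differed by -1.07 in KO against WT (SE 0.26, adjusted p = 0.409), Kcnmb1 -0.75 (adjusted p = 0.42) and Kcnip2 -0.60 (adjusted p = 0.471). In the other direction Scn3a differed by 0.43 (adjusted p = 0.837), Kcnk2, a stretch-sensitive 2-pore channel, by 0.44 (adjusted p = 0.84) and Kcnv2 by 0.55 (adjusted p = 0.937). Scn4b, Kcnmb1 and Kcnip2 were among the genes that infarction lowered in WT. Of the 37 genes of 6 or more, 27 had a lower mean in KO sham than in WT sham, with a median difference of -0.11. Over all genes of 6 or more the median was -0.02. The limit of 6 was set on the WT sham arrays, which favours a lower KO sham mean in both sets. How many of all genes had a lower mean was not counted.

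In infarcted hearts Kcnk3 had the smallest p of the genes that read higher in KO (0.69, SE 0.12, adjusted p = 0.0783). With an intensity trend and a robust prior it passed (adjusted p = 0.0233, range over alternatives 0.0233 to 0.463). Kcnn2 differed by 0.53 (adjusted p = 0.236) and Kcnq1 by 0.52 (adjusted p = 0.243). Lower in KO MI than in WT MI, without passing, were Kcna2 (-0.46, adjusted p = 0.207), Kcnj4 (-0.43, 0.331) and Kcnk15 (-0.40, 0.332). Over its alternatives the Kcna2 difference ranged from -0.52 to -0.12.

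For the response itself, the KO value minus the WT value was 0.51 (adjusted p = 0.519) for Kcnk3, 0.66 (adjusted p = 0.563) for Scn7a and 0.66 (adjusted p = 0.574) for Kcnd2, so the fall was numerically smaller in KO. It was -0.68 (adjusted p = 0.506) for Kcnk15, -0.63 (adjusted p = 0.541) for Kcnk2 and -0.62 (adjusted p = 0.585) for Kcnab3, an intracellular Kv subunit. Of the 37 genes of 6 or more, 27 had a less negative or more positive response in KO, with a median difference of 0.19. Over all genes of 6 or more the median was 0.12. The WT sham arrays that set the limit of 6 also enter this difference, which favours such a sign. How many of all genes had it was not counted. For Kcnd2, whose infarct arrays read alike in both genotypes, the difference lay in the sham arrays. For Kcnk3 it lay mainly in the infarct arrays.

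Genes that work with these channels were counted from lists of partners. Of all genes, 15.8% were lower and 12.3% higher in WT, and 10.3% lower and 10.5% higher in KO. Among genes of 6 or more, 29.8% were lower in WT and 18.7% in KO. Of 23 measured channel partners and anchors, 13 fell and 2 rose in WT, with a median of -0.51, and 6 fell and 2 rose in KO, with a median of -0.13. Abcc9, the regulatory subunit that joins Kcnj11 and Kcnj8 in the ATP-sensitive channel, read 11.22 and 11.23 in WT sham, 11.004 and 11.35 in KO sham, 10.01 and 9.85 in WT MI, and 10.34 and 10.14 in KO MI. It differed by -1.30 in WT (adjusted p = 0.000202) and -0.94 in KO (0.00198). Abcc8, its relative, differed by -1.06 (adjusted p = 0.000168) and -0.74 (0.00194). Ank2, the ankyrin that anchors channels and exchangers, differed by -1.49 (adjusted p = 2.28e-05) and -1.15 (0.000173). Rangrf, a protein known to carry sodium channels to the membrane, differed by -1.11 (adjusted p = 0.000221) and -0.75 (0.00317).

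Of 15 gap junction and conduction genes, 4 fell and 1 rose in WT, and 5 fell and 0 rose in KO. Of all genes, 15.8% fell in WT and 10.3% in KO, and of those of 6 or more, 29.8% and 18.7%. The counts are therefore not read as particular to conduction genes. Irx4, a ventricular transcription factor, differed by -1.28 in WT (adjusted p = 8.78e-05) and -0.62 in KO (0.00716); the KO call was lost without KO MI replicate 1 (at an adjusted p of 0.0712; 0.00264 to 0.0712 over its alternatives). Tbx5, a transcription factor of the conduction system, differed by -0.86 (adjusted p = 0.00358) and -0.93 (0.00344). Etv1, known from fast-conducting muscle, differed by -1.73 (adjusted p = 1.67e-05) and -1.55 (4.89e-05). Tbx3, a repressor of the working muscle programme, differed by -0.81 (adjusted p = 0.00172) and -0.83 (0.00234).

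Beside the all-gene shares of 15.8% lower and 12.3% higher in WT, and 10.3% and 10.5% in KO, a last list was counted. Of 20 other channels, pumps and exchangers measured, 7 fell and 1 rose in each genotype. The rise was Trpv2, a cation channel also known from macrophages, at 1.48 in WT (adjusted p = 0.000192) and 1.05 in KO (0.00202). Trpm4, a calcium-activated cation channel of heart, differed by -0.84 (adjusted p = 0.00132) and -1.09 (0.000518). Ano1, a calcium-activated chloride channel, differed by -1.08 (adjusted p = 0.000561) and -0.80 (0.00449). Trpc1 differed by -0.85 (adjusted p = 0.00651) and -0.70 (0.0232), and the KO call was lost without KO sham replicate 2 (0.12), KO MI replicate 1 (0.089), KO MI replicate 2 (0.13) or with median centring (0.0619; adjusted p, 0.00422 to 0.13 over its alternatives).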

How the data were processed

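Heart RNA was hybridised to 8 arrays of the Affymetrix Mouse Gene ST type. The deposited values are on a log2 scale and were made by the authors with Affymetrix Expression Console and RMA, per the submitters' processing notes, without versions. RMA as commonly run makes array distributions alike, which reduces a shift shared by most genes. Array medians lay between 5.004 and 5.253. Precision is limited by the few arrays; detection calls were not used.

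Of 35556 probes, 21789 had 1 gene in the platform annotation, 1621 had several and 12146 were unlisted. Entrez IDs tied 21698 of the first kind to RefSeq genes. The probe with the highest mean stood for each of 19938 genes, which mattered for 7 channel genes; 3 probes that name a channel gene with others were left out. Group means of all 8 arrays were fitted with limma 3.58.1 in R 4.3.3 (4 residual and 5.57 prior degrees of freedom), with no block, two-sided p-values adjusted by Benjamini-Hochberg over all genes. An exact permutation test of 2 arrays against 2 cannot give a p under 0.333. The code was tested on simulated data.

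The alternatives were an intensity trend with a robust prior, the lowest 33.3% of genes left out, the mean of a gene's probes, only both compared groups, cyclic loess, median centring, a replicate block, and leaving out each array, or KO sham replicate 1 with WT MI replicate 2. A lone array is then assumed to vary like the other groups. Genes named were the channels of the cardiac action potential, every called gene of 6 or more, up to 6 rises and 6 falls below 6 in each MI comparison whose arrays did not overlap, the 3 smallest p in each direction between genotypes, and 4 of each partner list by p. Kcnk6, Kcng1, Kcnj12 and Kcnd3os were named as the uncalled genes of 6 or more after their values were seen. Members and lists were chosen with earlier results of these data known. Same-numbered arrays had correlated deviations of -0.19 to 0.16, so numbers were not taken to pair arrays. Figures used matplotlib 3.10.9.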

Additional observations from a re-analysis of the deposited data

Results flagged for a closer look

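In 7 channel genes, both WT arrays moved one way after infarction and both KO arrays the other, with no overlap. The KO response minus the WT response was -0.12 for Cacna1b, 0.22 for Cacnb1, -0.36 for Kcnh8, -0.68 for Kcnk15, -0.37 for Kcnrg, -0.25 for Kcns1 and -0.46 for Scn3a. In 6 channel genes, KO lay on opposite sides of WT in sham and in infarcted hearts: Kcnh8, Kcnk15 and Kcnrg with the values above, Kcnip3 (0.31), Scn3b (0.41) and Scn7a (0.66). The test of the difference by limma gave adjusted p values of 0.506 or more for all of them, so none passed. Over all genes, arrays did not overlap upward in 35% and downward in 31.6% in WT, and in 28.1% and 27.5% in KO. The share of all genes with such opposite moves was not counted, so these moves are not read as particular to channel genes.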

How the results depend on the processing

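All 41 named channel gene calls in WT and 28 in KO kept their sign under the alternatives run (16, or 15 for Kcne3); 23 and 16 kept the call under every one, 18 and 12 lost it under at least 1. Leaving out KO sham replicate 1 with WT MI replicate 2 also ended calls, beyond the losses listed for each gene. These were Cacna1s, Hcn2, Kcnab2 and Kcnn1 in WT, and Cacna1h and Kcnn1 in KO. Of 12 named pathway genes, 0 lost the call in WT and 2 (Irx4, Trpc1) in KO. Named channel genes that were not called passed under at least 1 alternative in 2 cases in WT (Kcna5, Kcnk15) and 8 in KO (Cacna1s, Hcn2, Kcna5, Kcna7, Kcnab3, Kcng2, Kcnmb1, Kcnt2). Channel genes called higher in WT numbered 8, and 4 with median centring, 5 without both KO sham replicate 1 and WT MI replicate 2, and 4 to 15 when 1 array was left out. Channel genes lower in WT numbered 34, and 22 to 35 when 1 array was left out, the fewest without WT sham replicate 2. In KO, 5 were higher, 8 with cyclic loess or with both of those arrays left out, and 2 to 7 with 1 array left out. The 23 lower in KO, all of 6 or more, ranged from 15 to 24 with 1 array left out, the fewest without KO MI replicate 1, and numbered 17 with median centring, 28 with the lowest 33.3% of genes left out and 26 without both arrays. Kcnj4, not called in KO (-0.09), changed sign to 0.0595 without KO sham replicate 1 and to 0.0595 without both arrays, and was -0.24 without KO sham replicate 2; its adjusted p was 0.847 and 0.792 in the first 2 cases (0.377 to 0.954 over its alternatives). The cause of these moves was not tested.

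Over all genes, 5609 were called in WT and 3457 to 6483 with 1 array left out; 4142 were called in KO, 2246 to 4099 with 1 array left out and 4511 without both. Between sham groups 6 were called, 11 with an intensity trend, 3 with only both compared groups, 13 with median centring, and 3 to 34 with 1 array left out. Between MI groups 14 were called, 64 (1 of them Kcnk3) with an intensity trend, 23 with the lowest 33.3% of genes left out, 2 with only both compared groups, 3 without both arrays, and 2 to 11 with 1 left out. For the difference of the responses 0 were called (1637 at an unadjusted p under 0.05), 2 with an intensity trend, 1 with cyclic loess, and 0 to 3 with 1 array left out.

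With the replicate number as a block, channel genes higher and lower numbered 8 and 32 in WT and 5 and 24 in KO, and 5 of all genes were called between MI groups. The block ended the WT calls of Kcnab1 (adjusted p = 0.0521), Kcnn1 (0.0569) and Cacna2d4 (0.0611) and the KO call of Kcnc4 (0.0702), and Kcnmb1 passed in KO (0.0482). The numbers pair no animals in the labels. With the KO sham numbers crossed in the block, a choice made after seeing the data, 4385 genes were called in KO, among them 5 channel genes higher and 24 lower.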
